A study of Mus musculus with 2 samples.

Results

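The genes described here encode the major histocompatibility complex (MHC, called H2 in the mouse) and the machinery that loads it with peptides. They were taken from the value table of 2 expression arrays as every probe set whose platform annotation names a single gene symbol that starts with H2- or is B2m, Tap1, Tap2, Tapbp, Cd74, Ciita, Nlrc5 or Erap1. The rule found 37 genes on 55 probe sets, of 19938 genes in all. The RNA came from skeletal muscle of the hindlimb of chow-fed male mice of the C57BL/6J strain. One array was labelled wild type. The other was labelled with a Syn4 (syntaxin 4) transgene that overexpresses this plasma membrane SNARE protein. The series concerns lifespan in this insulin-sensitive transgenic line. The sources used here do not give the promoter that drives the transgene, the age of the mice or the number of mice behind each array.

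With 1 array per genotype there is no replicate error, so no difference below was tested and each value is a single measurement. All values are log2 intensities after RMA (robust multi-array average), and each difference is the transgenic minus the wild-type value, so 1 unit is a 2-fold difference. Stx4a, the mouse gene for syntaxin 4, read 8.84 in wild-type and 12.20 in transgenic muscle, as the labels state. The muscle fibre markers differed little: the 6 genes of that list ranged from -0.03 for Ckm to 0.20 for Ttn, and their summed linear intensity was 1.03 times the wild-type sum. As an orientation for dim signal, the 95th percentile of the mean level of 1027 olfactory receptor genes was 5.42. Across the 500 genes nearest in level to each member, the local spread of differences (a scaled median absolute deviation) lay near 0.2, and it describes these arrays without standing in for replicates.

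Class I molecules sit on nearly all nucleated cells and consist of a heavy chain, from the classical genes H2-K1 and H2-D1 or the non-classical Q, T and M genes, joined to beta-2-microglobulin. Peptides cut by the proteasome are pumped into the endoplasmic reticulum by TAP, trimmed by ERAP1 and loaded with the help of tapasin. Class II molecules are largely made by macrophages, dendritic cells and B cells, travel with the invariant chain CD74 and exchange its fragment for peptides with the help of DM. NLRC5 and CIITA are the transactivators of class I and class II genes. Resting muscle fibres are known to carry little class I, and class II RNA in whole muscle is usually traced to resident immune cells.

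The promoters of members whose signal was higher in transgenic muscle are shown first, because class I, class II and B2m promoters are known to share control elements. RefSeq promoter sequences (build GRCm38.p6) were matched for 26 of the 37 members, on 28 promoters. H2-T10, the member with the largest difference, was not among the 26. Below are the 250 bases before the start of B2m at chr2:122147437-122147686 (+ strand), H2-Q4 at chr17:35379367-35379616 (+ strand), H2-Aa at chr17:34287824-34288073 (- strand) and H2-Eb1 at chr17:34305617-34305866 (+ strand). Capitals mark the matches, on both strands, to the 3 motifs searched: the interferon-stimulated response element core (GAAA, any 2 bases, GAAA), a kappaB-like motif (GGG, any 2 bases, TT, any base, CC) and the Y box (ATTGG). These 4 promoters were chosen after the values were seen.
B2m: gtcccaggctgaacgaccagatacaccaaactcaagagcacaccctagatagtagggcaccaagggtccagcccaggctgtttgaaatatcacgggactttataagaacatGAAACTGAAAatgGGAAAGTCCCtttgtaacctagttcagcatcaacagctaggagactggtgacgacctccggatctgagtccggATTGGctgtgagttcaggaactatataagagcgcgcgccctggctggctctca
H2-Q4: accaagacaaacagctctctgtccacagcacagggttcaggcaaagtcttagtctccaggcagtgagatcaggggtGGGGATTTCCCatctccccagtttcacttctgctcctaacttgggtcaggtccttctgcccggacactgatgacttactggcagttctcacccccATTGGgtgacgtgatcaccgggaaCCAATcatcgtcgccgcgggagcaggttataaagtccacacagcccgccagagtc
H2-Aa: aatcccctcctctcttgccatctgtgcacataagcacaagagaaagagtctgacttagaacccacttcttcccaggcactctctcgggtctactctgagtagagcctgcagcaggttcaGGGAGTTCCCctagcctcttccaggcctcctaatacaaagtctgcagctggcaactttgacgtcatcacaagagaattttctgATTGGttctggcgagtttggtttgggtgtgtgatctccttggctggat
H2-Eb1: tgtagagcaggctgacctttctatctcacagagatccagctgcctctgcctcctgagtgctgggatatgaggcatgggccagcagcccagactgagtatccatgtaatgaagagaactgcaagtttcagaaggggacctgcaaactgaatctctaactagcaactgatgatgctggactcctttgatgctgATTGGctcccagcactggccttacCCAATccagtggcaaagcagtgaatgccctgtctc

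B2m held all 3 motifs: the response element core at -139 to -130, the kappaB-like match at -126 to -117 and the Y box at -53 to -49 from the start. H2-Q4 held a pair of overlapping kappaB-like matches, which begin at -174 and -173, and Y boxes on opposite strands. H2-Aa held a kappaB-like match and a Y box, and H2-Eb1 held Y boxes on opposite strands. Over the whole promoter window, the Y box occurred in 24 of 28 member promoters against 37.4% of 32851 RefSeq promoters. Members with a Y box went in both directions, among them H2-Eb1 (0.47) and B2m (0.38) but also H2-Ob (-0.44) and H2-M10.2 (-0.42). Many member promoters descend from common ancestors, so they are not independent. The kappaB-like motif occurred in 4 of 28 member promoters against 4.79% of all, and the fourth was that of H2-Oa, whose signal was lower (-0.16). The response element core occurred in 2 of 28 (B2m and Erap1) against 3.44%. A match is a stretch of letters, and no binding was measured here.

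Only 1 of the 37 members differed by 1.5-fold (0.58 on the log2 scale), and it was lower. None was higher by that size. Of all 19938 genes, 1.19% were lower and 1.76% higher by 1.5-fold. Over the members 21 were higher, 15 lower and 1 equal, with a median difference of 0.04, beside a median of 0.00 over all genes. Level divided them. Of the 13 members whose mean of both arrays lay at or above the median mean of all genes (6.69), 11 were higher, 1 was lower and 1 equal, whereas of the 24 under it 10 were higher and 14 lower. The corresponding share of genes that were higher was 53.4% over all genes at or above that mean and 40.5% over those under it. A total of 13 members were under the olfactory receptor percentile in both arrays.

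**Figure D1:**
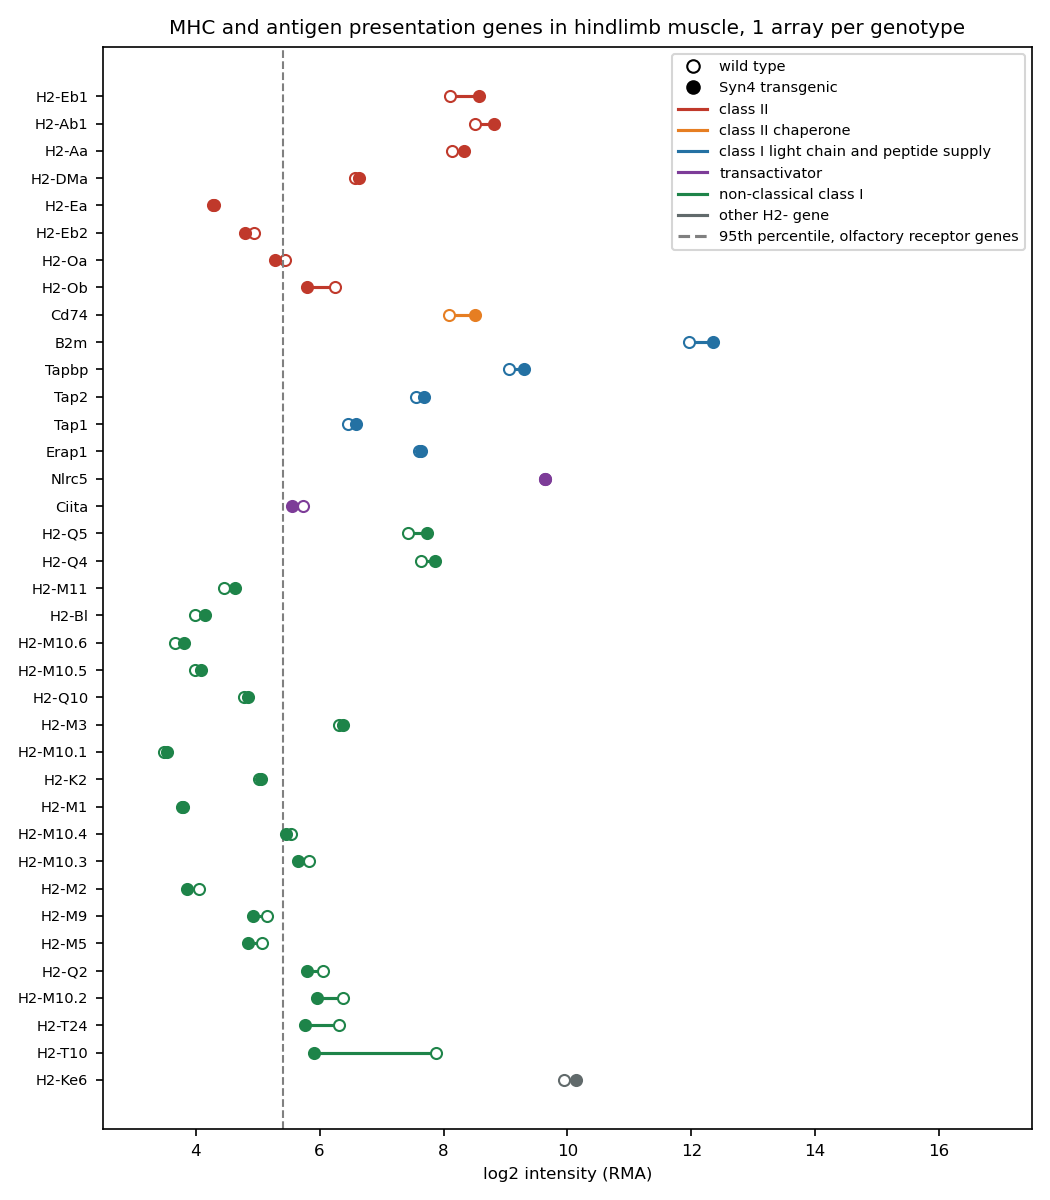
Log2 intensity (horizontal axis) of each of the 37 member genes in the wild-type array (open circle) and the Syn4 transgenic array (filled circle), coloured by class, with the olfactory receptor percentile of 5.42 as a dashed line. H2-T10 spans from 7.87 to 5.91, the longest line, and 13 members lie left of the dashed line in both arrays.

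No classical class I gene had a probe set of its own. H2-K1 and H2-D1 are named together, with LOC547349, on 2 probe sets. These genes are known to be similar in sequence, so cross-hybridisation is possible, but sequence identity was not computed here and only the shared symbols show the overlap. These probe sets therefore fall outside the rule and are read as a joint signal, not as either gene. The first, which lists H2-D1 before H2-K1, read 10.12 in wild-type and 10.52 in transgenic muscle, a difference of 0.40 (1.32-fold). The other read 9.38 and 9.94, a difference of 0.56 (1.47-fold), just short of the 1.5-fold rule. The joint classical signal was higher in transgenic muscle on both.

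Among the 20 non-classical class I genes, 10 were higher and 10 lower, with a median difference of 0.01 (0.005 before rounding) and a mean of -0.14. The direction of the median depended on the level filter: it was 0.23 over the 3 genes that passed the filter on the mean and -0.18 over the 9 with both arrays at or above the olfactory receptor percentile. H2-T10, whose family products are known as ligands of gamma delta T cells, was the exception in size. It read 7.87 in wild-type and 5.91 in transgenic muscle, a difference of -1.96 or 3.89-fold lower. It ranked first in size when set among the 500 genes nearest to it in level, whose spread was 0.24. The difference also passed 2-fold, a size by which 0.221% of all genes were lower. RefSeq annotates H2-T10 as a transcribed pseudogene in this strain's assembly, one of 5 such members along with H2-Q5, H2-Bl, H2-K2 and H2-Ea.

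A second probe set, annotated jointly to H2-T9, H2-T22 and H2-T10, did not show this difference. It read 8.87 in wild-type and 8.69 in transgenic muscle, a difference of -0.18. The annotation of the H2-T10 probe set lists 5 accessions, 3 of which are also among the 14 accessions of the joint probe set. The H2-T10 signal thus rests on 1 probe set of a family known for similar sequences, and which T region transcripts it reads cannot be settled from these values. The nearest genes in RefSeq order with a single-symbol probe set differed by less. H2-Bl differed by 0.16 and Gm6034 by -0.11 on one side, and 2410017I17Rik by -0.26, Rpp21 by -0.34 and Trim39 by 0.06 on the other. T region genes read only on probe sets with several symbols have no place in that order. Of those, the H2-T23 and H2-T-ps probe set differed by 0.49 and the H2-T3 and H2-T18 probe set by -0.05. H2-T24, 3 measured genes away, read 6.31 and 5.77, a difference of -0.54, and ranked 15th in size among 501 genes of like level. H2-T24 fell just short of the 1.5-fold rule.

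The Q genes, which include the Qa-2 antigens, did not share a direction. H2-Q4 read 7.63 in wild-type and 7.86 in transgenic muscle (0.23), and the pseudogene H2-Q5 read 7.43 and 7.73 (0.30). The joint probe set of H2-Q6 and H2-Q8 read 7.74 and 8.13 (0.39). H2-Q2 went the other way, from 6.05 to 5.80 (-0.25). H2-Q10, a class I protein secreted mainly by liver, was under the olfactory receptor percentile at 4.78 and 4.85, and the joint probe set of H2-Q1 and H2-Bl differed by -0.10. The probe set shared by H2-T23, which encodes the Qa-1 heavy chain read by NKG2A receptors, and the pseudogene H2-T-ps read 7.15 and 7.64 (0.49). The joint H2-T3 and H2-T18 probe set was dim and differed by -0.05. In all, 4 of the 7 class I probe sets with several symbols were higher and 3 lower, none by 1.5-fold, and the split was the same after repeated quantile normalization.

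The M genes were mostly dim. H2-M3, which presents N-formylated bacterial peptides, read 6.31 and 6.37 (0.06). The 6 H2-M10 genes, known from vomeronasal neurons, ranged from -0.42 for H2-M10.2 (6.38 in wild-type and 5.96 in transgenic muscle) to 0.15 for H2-M10.6 (3.66 and 3.81). H2-M10.3 differed by -0.18, H2-M10.4 by -0.09, H2-M10.5 by 0.11 and H2-M10.1 by 0.04. These signals follow no common direction. H2-M5 and H2-M9 (both -0.23), H2-M2 (-0.20), H2-M1 (-0.02) and H2-M11 (0.18) lay under the olfactory receptor percentile in both arrays, as did H2-Bl (3.99 and 4.15) and H2-K2 (5.02 and 5.05), a class I pseudogene near H2-K1.

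**Figure D2:**
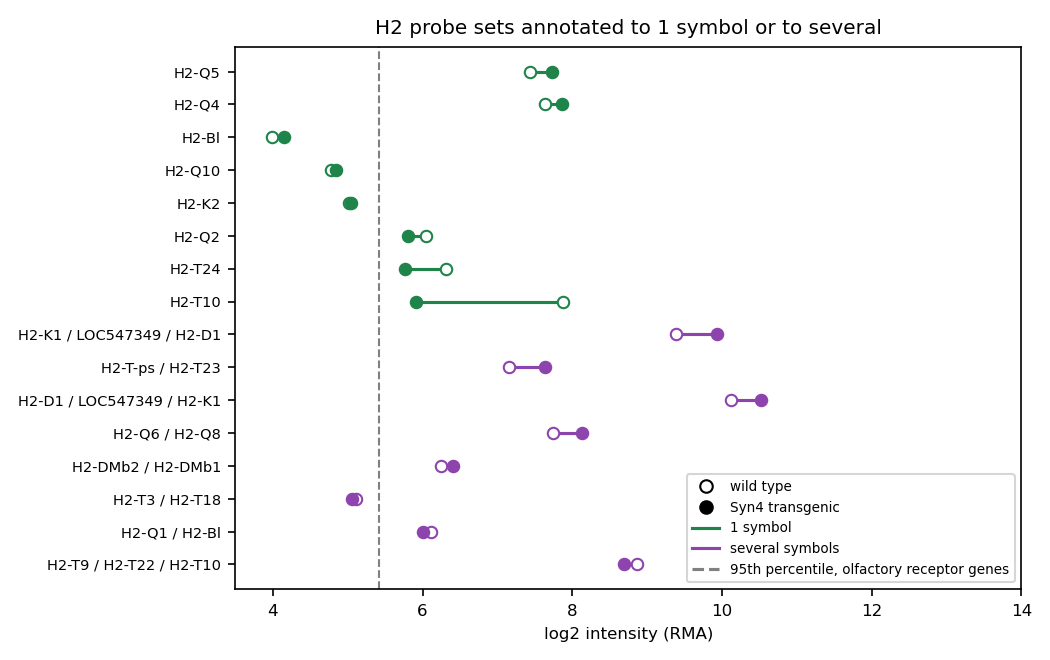
Log2 intensity of the 8 H2 probe sets annotated to several symbols (purple) and of 8 single-symbol class I probe sets from the K, Q and T regions (green), wild type open and transgenic filled. The H2-T10 probe set lies at 7.87 and 5.91, while the joint H2-T9, H2-T22 and H2-T10 probe set lies at 8.87 and 8.69.

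Of the class II genes, H2-Eb1, H2-Ab1 and H2-Aa had the highest signal and each read higher in transgenic muscle, while of the other 5 genes 1 was higher and 4 lower. H2-Eb1, the E beta chain, had the largest positive difference of all 37 members. It read 8.11 in wild-type and 8.58 in transgenic muscle, a difference of 0.47 (1.39-fold), and ranked 25th in size among 501 genes of like level. H2-Ab1, the A beta chain, read 8.51 and 8.81 (0.30). H2-Aa, the A alpha chain, read 8.13 and 8.33 (0.20), which is within the local spread of 0.24. The A chains pair into the I-A molecule, the class II molecule that C57BL/6 mice display.

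Cd74, the invariant chain, read 8.08 in wild-type and 8.51 in transgenic muscle, a difference of 0.43 (1.35-fold), and ranked 29th among 501 genes of like level. H2-DMa, a chain of the DM peptide exchange factor, differed by 0.07 (6.57 and 6.64), and the joint H2-DMb1 and H2-DMb2 probe set by 0.15. H2-Ob, a chain of the DM inhibitor DO found mainly in B cells, was lower, at 6.24 and 5.80 (-0.44). Its partner H2-Oa differed by -0.16 (5.44 and 5.28). H2-Eb2 (4.94 and 4.79) and H2-Ea (4.30 and 4.27) were under the olfactory receptor percentile. C57BL/6 mice are known to lack the E alpha chain. Over the 8 class II genes 4 were higher and 4 lower, with a median difference of 0.02. The median was 0.30 over the 3 that passed the filter on the mean and 0.20 over the 5 with both arrays at or above the olfactory receptor percentile.

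All 5 genes of the class I light chain and peptide supply were higher, by small amounts. B2m, the light chain of class I molecules, read 11.97 in wild-type and 12.35 in transgenic muscle, a difference of 0.38 (1.30-fold), and ranked 53rd in size among 501 genes of like level. Tapbp, tapasin, read 9.05 and 9.30 (0.25). Tap1 (6.46 and 6.58) and Tap2 (7.56 and 7.68), the subunits of the peptide pump, each differed by 0.12, and the trimming peptidase gene Erap1 by 0.04 (7.60 and 7.64). The median of the 5 was 0.12. After repeated quantile normalization 4 of the 5 were higher and Erap1 differed by 0. Differences of Tap1, Tap2 and Erap1 were smaller than the local spread of 0.22. Tapbp is also named with Rps3a1 on 2 joint probe sets, which differed by 0.06 and 0.04.

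Neither transactivator was higher. Ciita read 5.73 in wild-type and 5.56 in transgenic muscle (-0.17). Nlrc5 was equal at 9.63 in both arrays on its brightest probe set. It has 19 single-symbol probe sets, of which 9 were higher, 8 lower and 2 equal, with differences from -0.35 to 0.42, a median of 0.00 and an SD over probe sets of 0.21. For scale, the differences of B2m, Tapbp, H2-Aa and H2-Ab1 lie inside that range of probe sets of a single gene, and those of H2-Eb1 and Cd74 just above it. The range is not matched in level. The Nlrc5 probe sets had means from 4.615 to 9.63, with 4 under the olfactory receptor percentile in both arrays, beside means of 12.16 for B2m and 9.175 for Tapbp. H2-Ke6, which carries the prefix but encodes a steroid dehydrogenase of the MHC region, differed by 0.18 (9.95 and 10.13).

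**Figure D3:**
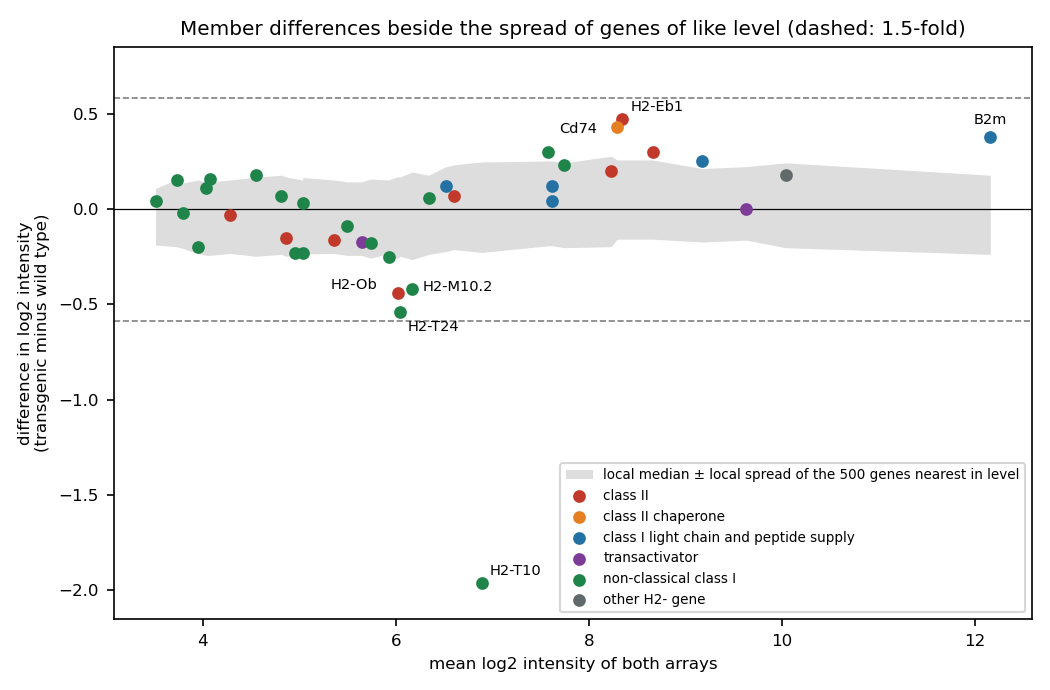
Difference in log2 intensity (vertical axis) against mean log2 intensity (horizontal axis) for the 37 members, with the local median plus and minus the local spread of the 500 genes nearest in level as a grey band drawn at the members' levels. H2-T10 at -1.96 lies far below the band. H2-Eb1 (0.47), Cd74 (0.43) and B2m (0.38) lie above it, and H2-T24 (-0.54), H2-Ob (-0.44) and H2-M10.2 (-0.42) below it. H2-Ab1 (0.30), H2-Q5 (0.30), Tapbp (0.25), H2-M11 (0.18) and H2-Bl (0.16) lie above it by less, and H2-Q2 (-0.25) just below it. All members but H2-T10 lie inside the dashed 1.5-fold lines.

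The other genes of the MHC region on chromosome 17 centred near 0. Between Tapbp and H2-M2 in RefSeq order, 164 genes were measured on single-symbol probe sets, of which 32 were members. The other 132 genes had a median difference of -0.04 (-0.035 before rounding), with 53 higher and 75 lower, 3 of them higher and 2 lower by 1.5-fold. They ranged from -0.66 to 1.09, so the highest of them exceeded every member. The bright class II genes H2-Ab1, H2-Aa and H2-Eb1 are consecutive in this order, and their neighbours H2-Ob (-0.44) and H2-Eb2 (-0.15) lay on the other side of 0.

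**Figure D4:**
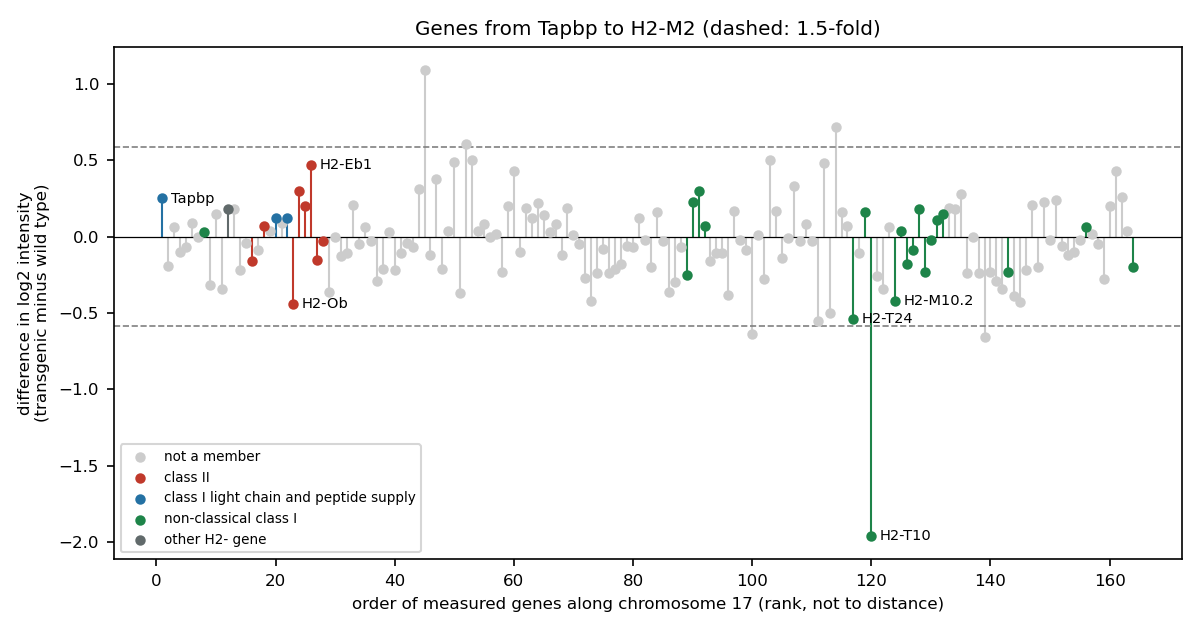
Difference in log2 intensity of the 164 measured genes from Tapbp to H2-M2, in RefSeq order along chromosome 17 (rank, not distance), members coloured by class and other genes grey. Probe sets with several symbols are not drawn. H2-T10 lies at -1.96 and its nearest measured neighbours between -0.34 and 0.16, and the class II cluster holds both positive and negative values.

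Other genes of antigen presentation differed little. None of the measured members of 6 of 7 pathway lists reached 1.5-fold. The exception was Azgp1, a class I-like gene outside the MHC, at 4.75 and 4.09 (-0.66), a difference between values under the olfactory receptor percentile. Of the 6 proteasome immunosubunits and regulators, 2 were higher and 4 lower (median -0.10, -0.095 before rounding), from Psme1 at -0.27 to Psmb8 at 0.09. Of 8 genes of peptide loading in the endoplasmic reticulum 5 were higher (median 0.15, 0.145 before rounding), from Tapbpl, a tapasin relative, at -0.16 to Uggt1, a glycoprotein folding sensor, at 0.51. Of 7 class II pathway proteases and regulators 5 were higher (median 0.09), from Ifi30 at -0.14 to cathepsin S (Ctss) at 0.25.

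Of 12 genes of MHC transcription 8 were higher and 3 lower (median 0.08). Rfx5, a subunit of the factor that binds the X box of MHC promoters, was highest at 0.48 (6.64 and 7.12), and Nfyc was lowest at -0.20. The interferon gamma axis had a median of 0.02 over 7 genes, from Ifng itself at -0.29 (5.04 and 4.75, under the olfactory receptor percentile) to its receptor Ifngr1 at 0.32. The 6 class I-like genes outside the MHC had a median of -0.16 (-0.155 before rounding), and Cd1d1, which presents lipids, was highest at 0.36. Among 9 receptors of MHC molecules 7 were lower (median -0.09), from Cd3e at -0.28 to Pirb at 0.47, and none of the 9 reached the level filter of 6.79, the median over all genes of the higher value.

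Markers of the immune cells that carry class II did not share a direction. In bulk tissue, more cells of a type and more RNA per cell cannot be told apart. Of 10 macrophage markers 8 were higher, from Adgre1 at -0.12 to C1qa at 0.25, with a median of 0.16. Their summed linear intensity was 2696 in wild-type and 2947 in transgenic muscle. Of 7 dendritic cell markers 4 were higher (median 0.08), from Zbtb46 at -0.36 to Xcr1 at 0.25, with sums of 441 and 407, and 3 were under the olfactory receptor percentile in both arrays. The median turned to -0.08 (-0.075 before rounding) without those 3 and to -0.25 (-0.245 before rounding) over the 2 that passed the filter on the mean. All 5 measured B cell markers were lower, from Cd79b at -0.34 to Ms4a1 at -0.03, with sums of 207 and 173. Of the B cell markers 2 reached the olfactory receptor percentile in both arrays. The 7 measured T and NK cell markers had a median of -0.25 and sums of 288 and 258, from Nkg7 at -0.36 to Gzma at 0.22. Of these 3 were higher and 4 lower, only 3 reached the olfactory receptor percentile in both arrays and none reached the level filter. Nkg7 (4.69 and 4.33) and Gzma (4.16 and 4.38) were under that percentile. The 4 general leukocyte markers ran from Laptm5 at -0.11 to Cd52 at 0.16, with sums of 373 and 368.

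All 6 white adipocyte markers were higher by at least 1.5-fold, with summed intensities of 1040 in wild-type and 3476 in transgenic muscle, a ratio of 3.34. Their differences were Lep 3.20, Adipoq 2.06, Cidec 1.81, Plin1 1.62, Retn 1.15 and Slc7a10 0.86. All 6 fibroblast markers were higher as well, from Dcn at 0.14 to Lum at 0.74, which passed 1.5-fold, and their sums were 13386 and 15789. The 6 endothelial markers had sums of 5443 and 5196, from Kdr at -0.44 to Vwf at 0.32. The part of these cell types in the MHC differences was not tested.

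**Figure D5:**
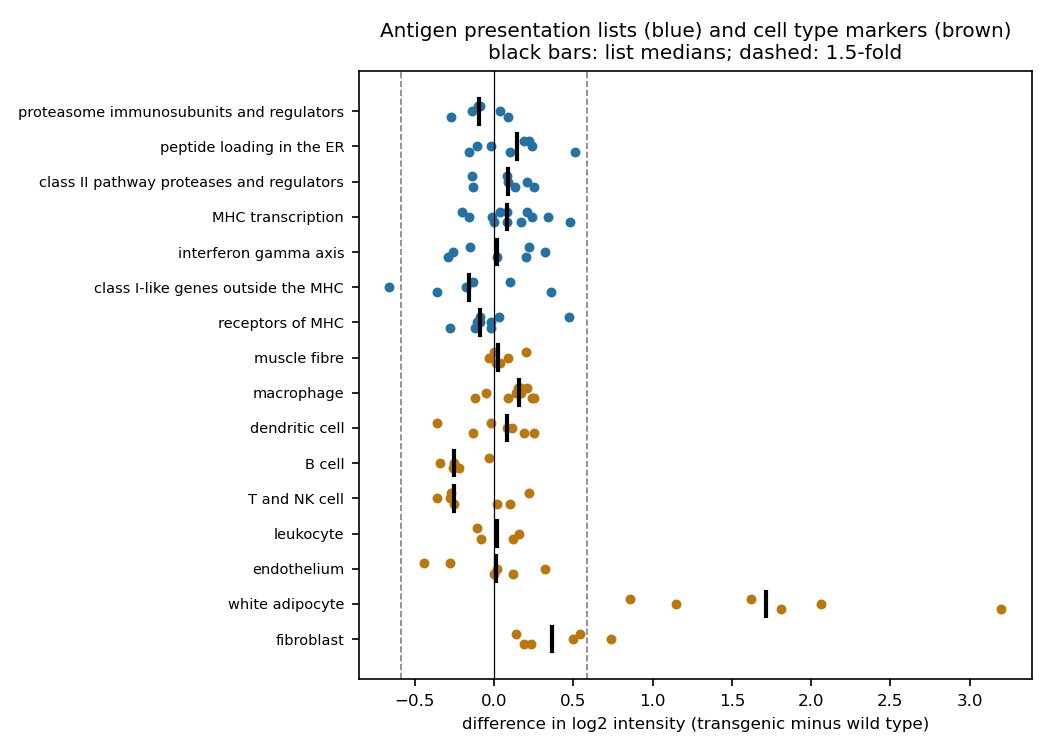
Difference in log2 intensity of each measured gene of the 7 antigen presentation lists (blue) and the 9 cell type marker lists (brown), with list medians as black bars and 1.5-fold as dashed lines. The pathway lists centre between -0.16 and 0.15, while the white adipocyte markers run from 0.86 to 3.20.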

How the data were processed

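RNA from hindlimb muscle was measured on 1 whole-transcript array for wild-type and 1 for Syn4 transgenic mice. The authors deposited log2 intensities, made with RMA and Partek per the submitters' processing notes. The sources used here do not give versions or single steps. RMA compresses large ratios, and no scanner intensities were used here. The number of arrays limits the precision. The median was 6.06 in both arrays.

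Genes were named by the platform annotation, some of which may be outdated. Of 35556 probe sets, 21789 carried 1 symbol, 1621 several and 12146 none. All 37 members were found by Entrez identifier in a RefSeq table of GRCm38.p6, with no symbol changed. A gene's value is that of its brightest single-symbol probe set. The build of the array design is unknown here, so the table served only for names, annotation and gene order, and coordinates are those of the RefSeq promoter sequences.

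Differences were described with counts at 1.5-fold over all genes without a level filter. Members, lists, motifs and the rule for named genes (all members, list members past 1.5-fold, and the highest and lowest of each list) were chosen with earlier results of these data known. The neighbours of H2-T10 were looked up after its value was seen. The counting step was tested on simulated data. Python 3.11.15, pandas 2.3.3, numpy 2.4.6 and statsmodels 0.14.6 were used.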

Additional observations from a re-analysis of the deposited data

How the results depend on the processing

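Scaling mattered little for single genes. Averaging probe sets could change only Nlrc5, because 36 of 37 members had 1 single-symbol probe set. Centring subtracted a median of 0.00, so it could not move a value. The joint H2-T9, H2-T22 and H2-T10 probe set (-0.18, beside -1.96 for H2-T10 alone) was not part of this comparison. With averaged probe sets, centring on the median, a loess trend (span 0.3) subtracted or repeated quantile normalization, no member moved by more than 0.055, and 2 of 37 changed sign (H2-Ea and H2-M1, each within 0.03 of 0). The count of members past 1.5-fold stayed at 1 lower and 0 higher under these settings, as it did at 2-fold. It was also unchanged under each level filter, but a filter can only remove members. H2-T10 passed the filter on the higher value (6.79) only through its wild-type value of 7.87, beside 5.91 in transgenic muscle. The unchanged count under the filters is therefore no further support. Medians of classes moved with the level filter, which leaves fewer genes. With a filter on the higher value or on the mean, the median was 0.23 for non-classical class I, 0.30 for class II and 0.23 for all members. With both arrays at or above the olfactory receptor percentile it was -0.18 for non-classical class I and 0.20 for class II. The mean of non-classical class I was -0.14, with H2-T10 included. Among the lists, the dendritic cell median was -0.25 (-0.245 before rounding) with either level filter and -0.08 (-0.075 before rounding) at the olfactory receptor percentile, the leukocyte median was -0.11 with either level filter, and the T and NK cell mean was -0.12. All other medians of classes and lists moved by 0.1 or less. No paired analysis was possible because each genotype has 1 array.

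With no replicates, a difference of any size cannot be told from variation between mice or arrays.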
